A study of Mus musculus with 12 samples.

Results

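The cytosolic ribosome is built from ribosomal RNA and a set of proteins of the large subunit (Rpl genes) and the small subunit (Rps genes). The genes described here are the rows of the deposited count tables whose symbol has the form of a ribosomal protein gene: Rpl or Rps with a number and at most a short suffix, the stalk genes Rplp0, Rplp1 and Rplp2, and Rpsa. The pattern leaves out symbols marked as pseudogenes and the Rps6 kinases, but it takes in Rps4y2, which the annotation lists as a pseudogene. It found 84 of 26608 gene rows. The pattern uses names and no measured value, but this gene family was chosen with earlier results of these data known. Of the 84 genes, 81 had enough counts to be tested among 14254 tested genes, 48 of the large subunit and 33 of the small subunit.

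RNA had been sequenced from about 250 sorted cells per library, from lungs of mice labelled C57Bl/6. The 12 libraries form 4 groups of 3. The CrePos IM group holds interstitial macrophages, which reside in the tissue between airspaces and vessels, from mice with Cx3cr1cre and Hif1α Δ/Δ, and the CreNeg IM group holds the same cells from Hif1α flox/flox mice without Cre. The CrePos RM and CreNeg RM groups hold nonclassical monocytes, the monocytes that patrol the vessel wall, from mice of the same genotypes. All mice, controls included, had spent 3 weeks in hypoxia with a weekly dose of SU5416, an inhibitor of VEGF receptors, so no library shows these cells in normal air. Cx3cr1 is active in both cell types and in other monocytes and macrophages, so the deletion was not limited to the sorted cells, and the groups used here include no animal with Cre and intact Hif1a. The labels do not say whether the 3 libraries of a group came from separate animals, and p-values measure the spread between libraries. In libraries of sorted pools, fewer cells that make an mRNA and less of that mRNA per cell cannot be told apart.

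Ribosomal protein mRNAs are among the most abundant in most cells, and their products are needed in equal numbers, so the genes are usually expressed together. Most of these mRNAs begin with a run of pyrimidines, the 5′ terminal oligopyrimidine (TOP) motif, through which the kinase complex mTORC1 and the RNA-binding protein Larp1 set their translation and stability. The product of Hif1a is the HIF-1 subunit that oxygen destabilises, and HIF-1 turns on glycolytic genes and the mTORC1 inhibitor Ddit4 when oxygen is scarce.

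RefSeq start windows of GRCm38.p6, which run from 250 bases before to 50 bases after an annotated start, were at hand for 63 of the 84 genes. The 30 bases around the longest pyrimidine run are shown for the 6 genes that passed a test of the deletion, because the TOP motif is the sequence feature that this gene family is known for. Capitals mark the longest run of C and T within 50 bases on either side of the annotated start, on the strand of the gene. The lines hold Rpl37 at chr15:5116632-5116661 on the plus strand, Rpl26 at chr11:68901579-68901608 on the plus strand, Rps27 at chr3:90213631-90213660 on the minus strand, Rpl23 at chr11:97782404-97782433 on the minus strand, Rps3 at chr7:99483720-99483749 on the minus strand and Rps23 at chr13:90923142-90923171 on the plus strand.
Rpl37: gcgggggtgCTTTCTCTTCCggtctctttg
Rpl26: gcgtgtagTTCTCTTTCCTTTTgcggccat
Rps27: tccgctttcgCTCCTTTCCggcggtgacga
Rpl23: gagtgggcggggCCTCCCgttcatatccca
Rps3: tgcaaaacttcaTTTCCCatgaacacttgc
Rps23: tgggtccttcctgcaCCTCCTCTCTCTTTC
The run was 11 bases long in Rpl37, 14 in Rpl26, 9 in Rps27, 6 in Rpl23, 6 in Rps3 and 15 in Rps23, where it reached the end of the window. Some genes have several annotated starts, and a gene was counted once where any of its windows held a match. Runs of at least 9 pyrimidines were found in 51 of the 63 genes (81.0%), against 28.4% of the 27025 genes with a window. Counted from the annotated start, the run began at base 29 in Rpl37, 22 in Rpl26 and -2 in Rps27. It began at base 19 in Rpl23, -28 in Rps3 and 36 in Rps23. A run at such a place is not shown to be a TOP motif, which opens the mRNA. An annotated start can lie some bases away from the start used in these cells. A missing run therefore says only that these letters are not in the window.

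The windows were also searched on both strands for short motifs. The ETS factor motif CCGGAAG was found in 26 of the 63 genes (41.3%, against 9.93% of all genes with a window), and the YY1 motif AAGATGGC was in 6 (9.52%, against 3.19%). The core letters of the hypoxia response element, ACGTG or GCGTG, were found in 44 genes (69.8%, against 46.7%), ACGTG in 20 (31.7%, against 21.8%) and GCGTG in 37 (58.7%, against 35.2%). An ETS match and a YY1 match are given in capitals in 100 bases of Rpl37 and Rps27, both genes that passed the test in macrophages, at chr15:5116513-5116612 on the plus strand and chr3:90213649-90213748 on the minus strand.
Rpl37 upstream: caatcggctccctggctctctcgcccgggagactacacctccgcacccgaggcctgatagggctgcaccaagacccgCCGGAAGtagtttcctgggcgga
Rps27 upstream: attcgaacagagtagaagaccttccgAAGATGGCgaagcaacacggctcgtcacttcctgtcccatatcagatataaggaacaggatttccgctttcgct
These matches are a description of the letters and were not tested as binding sites.

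Several features of the libraries bear on all values. Gene counts ranged over 7039631 to 9054232 in CrePos IM, 13333039 to 14099509 in CreNeg IM, 5332600 to 11169706 in CrePos RM and 7238612 to 8583265 in CreNeg RM libraries. Reads outside annotated exons made up 65.2 ± 5.48% of exonic and non-exonic reads in CrePos IM, 42.0 ± 3.06% in CreNeg IM, 66.6 ± 9.91% in CrePos RM and 61.7 ± 4.54% in CreNeg RM libraries (mean ± SD, n = 3 each). The marker lists separated the sorted types by group. Of 17 interstitial macrophage markers, 15 passed the test as higher in CrePos IM than in CrePos RM and 13 as higher in CreNeg IM than in CreNeg RM. Of 17 nonclassical monocyte markers, 13 and 14 passed as lower in the same comparisons. These comparisons do not show how pure each library was, and markers of other cell types are given further below. Hif1a itself averaged 199 ± 6.50 CPM (counts per 1000000 gene counts, scaled by TMM) in CrePos IM and 228 ± 15.6 CPM in CreNeg IM, and 172 ± 34.8 CPM in CrePos RM and 225 ± 19.6 CPM in CreNeg RM (SD, n = 3 each), neither difference passing the test (adjusted p = 0.938 and 0.407). Whole-gene counts do not measure the excision of floxed exons.

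Ribosomal protein mRNAs took a smaller share of gene counts in CrePos than in CreNeg libraries of both cell types. The 84 genes together took 1.18, 1.07 and 1.15% of the gene counts in the CrePos IM libraries IM649, IM650 and IM661, against 2.12, 2.20 and 2.20% in the CreNeg IM libraries IM648, IM659 and IM660. Among monocytes they took 1.09, 1.13 and 1.08% in the CrePos RM libraries RM649, RM650 and RM661, against 1.57, 1.95 and 1.76% in the CreNeg RM libraries RM648, RM657 and RM659. Every CrePos library thus lay below every CreNeg library, and the mean share was 47.9% lower in macrophages (1.13 ± 0.0550% in CrePos IM, 2.17 ± 0.0439% in CreNeg IM) and 37.4% lower in monocytes (1.10 ± 0.0235% in CrePos RM, 1.76 ± 0.191% in CreNeg RM). The exact 95% binomial intervals of these shares reach at most 0.00925 percentage points to either side and cover counting error only. No test was run on the sum.

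**Figure D1:**
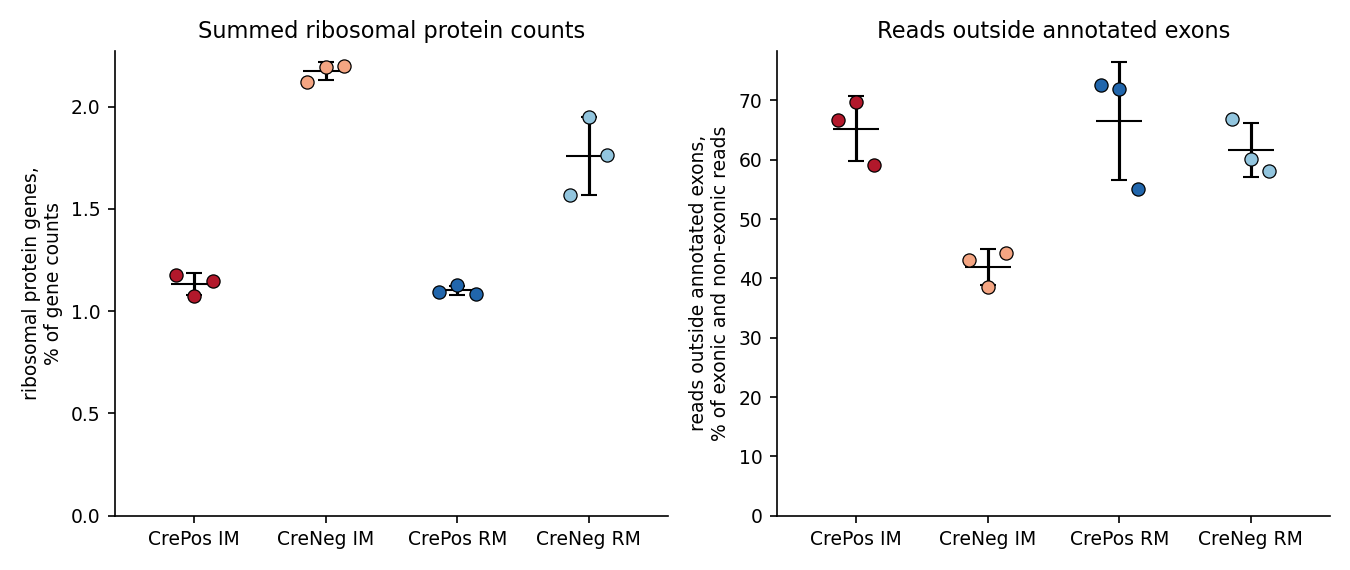
Left, the summed share of gene counts taken by the 84 ribosomal protein genes, in percent. Right, the share of reads outside annotated exons, in percent of exonic and non-exonic reads. Points are libraries, horizontal lines are group means and bars are SD of 3 libraries. The CrePos libraries lie between 1.07 and 1.18% on the left, below all CreNeg libraries. On the right the macrophage groups are apart and the monocyte groups overlap.

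Both subunits had lower shares in CrePos libraries. Large-subunit genes took 0.719 ± 0.0367% of gene counts in CrePos IM and 1.39 ± 0.0208% in CreNeg IM, and 0.686 ± 0.0164% in CrePos RM and 1.08 ± 0.122% in CreNeg RM. Small-subunit genes took 0.414 ± 0.0230% in CrePos IM and 0.783 ± 0.0234% in CreNeg IM, and 0.415 ± 0.00783% in CrePos RM and 0.674 ± 0.0691% in CreNeg RM. Neither subunit's CrePos mean plus its SD reached the CreNeg mean less its SD in either cell type.

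The non-exonic share in macrophages was higher in the genotype with the lower ribosomal protein share. It was 66.7, 69.8 and 59.2% in the CrePos IM libraries, against 43.2, 38.5 and 44.2% in the CreNeg IM libraries, with no overlap. In monocytes it was 72.7, 71.9 and 55.1% in the CrePos RM libraries, against 66.8, 60.2 and 58.1% in the CreNeg RM libraries. The library RM661, with 55.1%, lay below all 3 CreNeg RM libraries, and its ribosomal protein share of 1.08% also lay below theirs. This library had the largest summed CPM of endothelial markers as well, as given further below. Malat1, a nuclear long noncoding RNA, took 4.42 ± 0.132% of gene counts in CrePos IM, 1.35 ± 0.435% in CreNeg IM, 4.01 ± 0.480% in CrePos RM and 2.83 ± 0.856% in CreNeg RM libraries. With Malat1 taken out of the gene counts, the ribosomal protein shares were 1.19% in CrePos IM and 2.20% in CreNeg IM, and 1.15% in CrePos RM and 1.81% in CreNeg RM. The part of unspliced and nuclear RNA in the differences was not tested beyond these values and the fit with the non-exonic share as a covariate.

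Each sequencing lane, as the names of the deposited files give it, held libraries of 1 cell type and both genotypes. Within lane 5, the share was 1.07% in the CrePos IM library and 2.20% in both CreNeg IM libraries, and within lane 7 it was 1.15 and 1.18% in the CrePos IM libraries and 2.12% in the CreNeg IM library. Within lane 6, it was 1.13% in the CrePos RM library and 1.76 and 1.95% in the CreNeg RM libraries, and within lane 8 it was 1.08 and 1.09% in the CrePos RM libraries and 1.57% in the CreNeg RM library. The difference thus had the same direction in all 4 lanes. Over the 81 tested genes, the median within-lane difference of log2(CPM + 1), CrePos minus CreNeg, was -1.21 in lane 5, -0.85 in lane 7, -0.91 in lane 6 and -0.77 in lane 8.

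The first comparison asks what the deletion of Hif1a did in interstitial macrophages. All 81 tested genes had a fitted log2 fold change below 0, against 46.8% of all tested genes, and 76 of the 81 had no overlap between the libraries, CrePos IM below CreNeg IM, against 13.4% of all genes. The median log2 fold change was -0.99 over the ribosomal protein genes (quartiles -1.14 and -0.89), against 0.07 over all tested genes. It was -0.97 for the large and -1.04 for the small subunit, and 77 of the 81 values lay within 0.5 of the median. In edgeR's quasi-likelihood test with Benjamini-Hochberg adjustment over all genes, 3 of the 81 fell (background of lower calls 0.0491%) and 0 rose (background of higher calls 0.239%). An unadjusted p under 0.05 was reached by 71 of the 81 in the lower direction, against 3.48% of all genes, and by 0 in the higher, against 6.36%. No gene of the set was without overlap in the higher direction, against 16.2% of all genes.

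**Figure D2:**
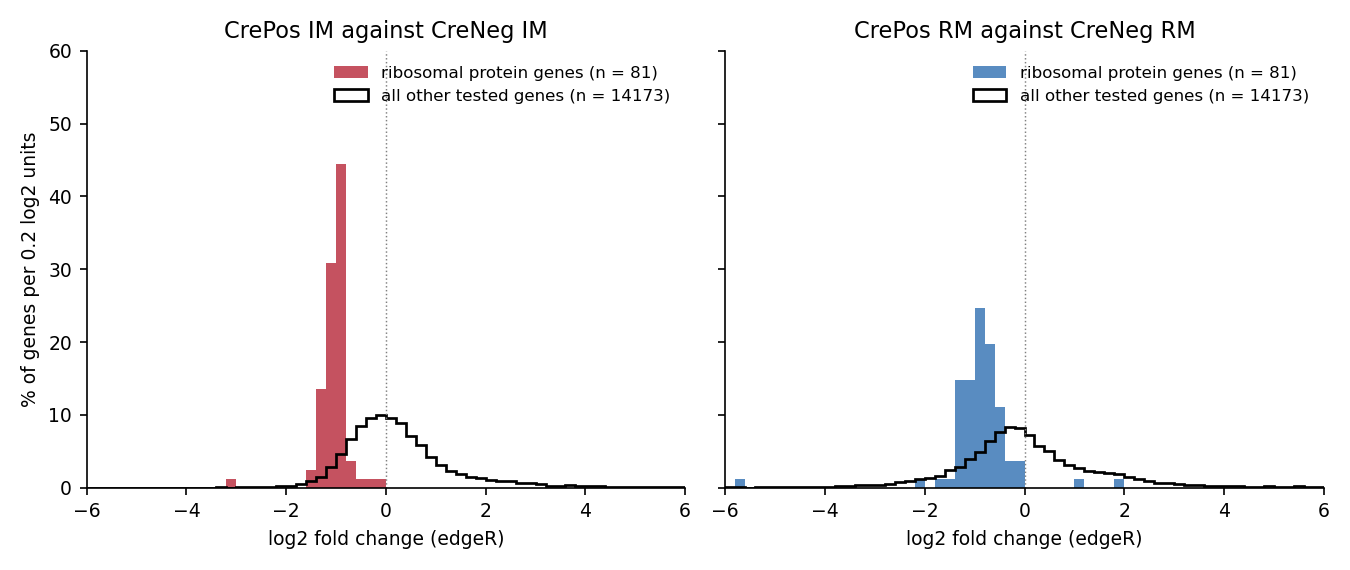
Distribution of the log2 fold change, CrePos over CreNeg, of the 81 tested ribosomal protein genes beside that of the other tested genes (line), for interstitial macrophages (left) and nonclassical monocytes (right). The x axis is the fitted log2 fold change and the y axis the percent of genes in a bin. The ribosomal protein genes centre on -0.99 in macrophages and -0.87 in monocytes, and all tested genes on 0.07 and -0.10.

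Rpl37, Rpl26 and Rps27 were the 3 genes past the threshold in macrophages. Rpl37, a zinc-binding protein of the large subunit (chr15:5116645-5119140, plus strand, GRCm38), had 101, 126 and 119 CPM in CrePos IM, against 307, 310.1 and 282 CPM in CreNeg IM libraries. Its highest CrePos library was far below the lowest CreNeg library, and it fell to 0.385 of the control level (log2 fold change -1.38 ± 0.221 SE, adjusted p = 0.0444 in edgeR's quasi-likelihood test). Rpl26, a large-subunit protein that is known to bind p53 mRNA (chr11:68901583-68906989, plus strand), had 358, 342 and 371 CPM in CrePos IM, against 767, 881 and 827 CPM in CreNeg IM libraries. The CrePos libraries lay close together and apart from the controls (log2 fold change -1.21 ± 0.210 SE, fold 0.432, adjusted p = 0.0444 in the same test). Rps27, a zinc-binding protein of the small subunit (chr3:90212522-90213651, minus strand), had 109, 88.9 and 72.8 CPM in CrePos IM, against 223, 250.4 and 238 CPM in CreNeg IM libraries. Its groups did not overlap either (log2 fold change -1.39 ± 0.257 SE, fold 0.381, adjusted p = 0.0447 in the same test).

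The number of calls in macrophages depended on single libraries and on the fit far more than the size of the difference. No gene of the set passed without any one of the 6 macrophage libraries, without RM657 or without RM659, 1 passed without RM648, 10 without RM650, 21 without RM649 and 33 without RM661, while the median log2 fold change stayed between -1.22 and -0.90. More genes passed outside the set in the same settings: 82 genes in all passed as lower without RM661, against 7 in the fit of all libraries. DESeq2 called 51 of the 81 lower, among 140 lower calls in all, a fit of the 6 macrophage libraries alone called 65, among 401, and fits with the lane or the non-exonic share as a covariate called 0, among 0. With the non-exonic share as a covariate, the median log2 fold change was -0.55, against 0.52 over all tested genes, 68 of the 81 genes were below 0 and 18 had an unadjusted p under 0.05. The 17 interstitial macrophage markers summed to 14195 to 20045 CPM in CrePos IM, against 24993 to 28128 CPM in CreNeg IM libraries, with 15 of 17 below 0 and none past the threshold, and their part in the result was not tested.

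**Figure D3:**
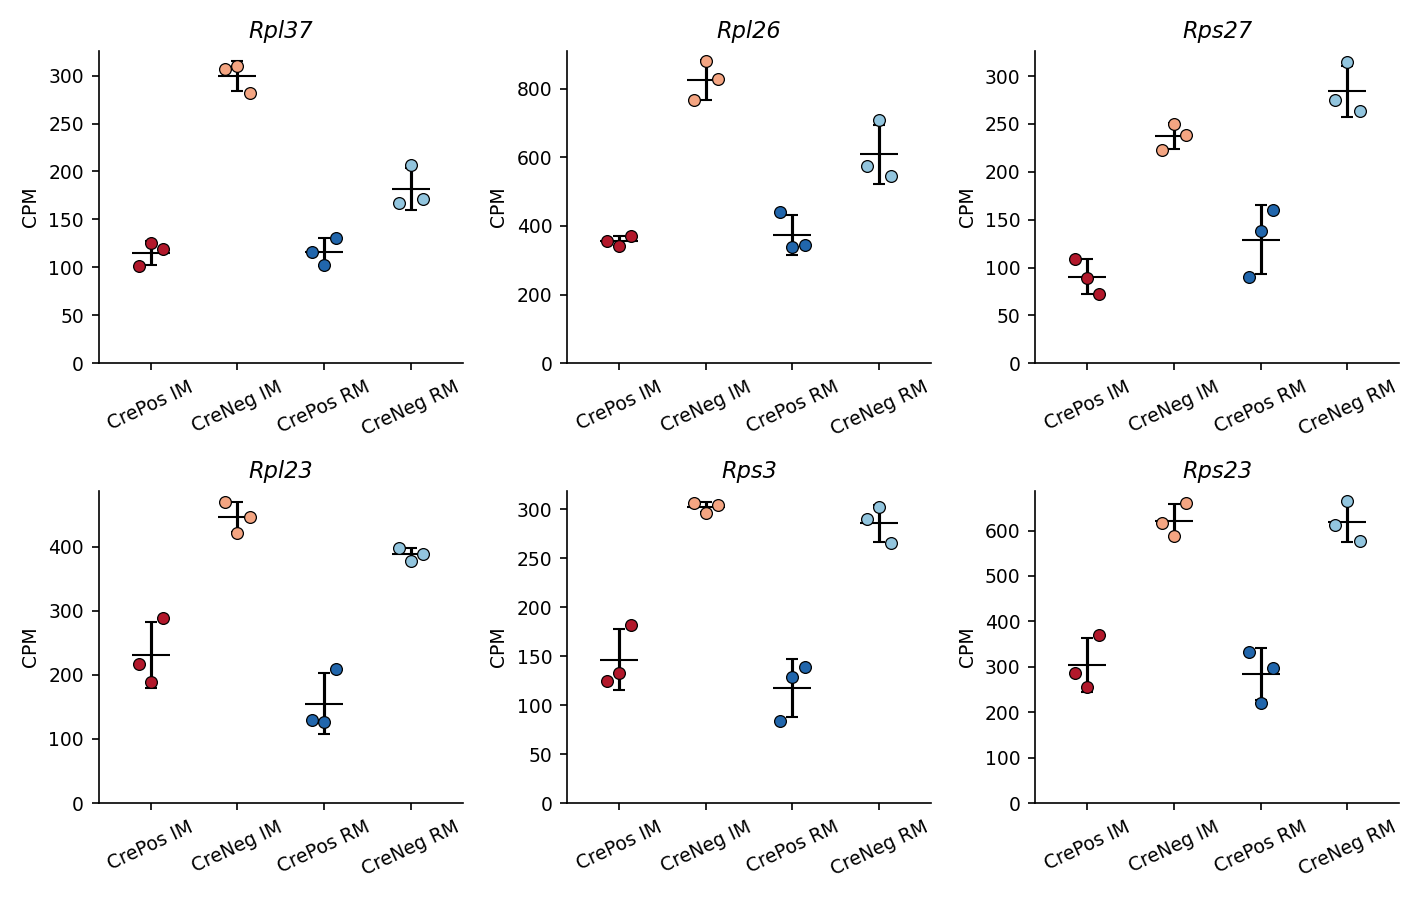
CPM in every library for the 6 ribosomal protein genes that passed the test of the deletion, Rpl37, Rpl26 and Rps27 in macrophages (top) and Rpl23, Rps3 and Rps23 in monocytes (bottom). Points are libraries, horizontal lines are group means and bars are SD of 3 libraries. In all 6 panels every CrePos library lies below every CreNeg library of the same cell type.

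The same question was put to nonclassical monocytes. Here 79 of the 81 genes had a log2 fold change below 0, against 54.1% of all tested genes, and 67 had no overlap with CrePos RM below CreNeg RM, against 11.4%. The median log2 fold change was -0.87 (quartiles -1.12 and -0.65), against -0.10 over all tested genes, with -0.82 for the large and -0.93 for the small subunit. The spread between genes was wider than in macrophages, with 70 of the 81 within 0.5 of the median. In edgeR's quasi-likelihood test with Benjamini-Hochberg adjustment, 3 of the 81 fell (background of lower calls 0.337%) and 0 rose (background of higher calls 0.0842%). An unadjusted p under 0.05 was reached by 63 in the lower direction, against 8.73% of all genes, and by 0 in the higher, against 7.42%. No gene of the set was without overlap in the higher direction, against 5.9% of all genes. Rpl22l1 and Rps4y2 were the 2 genes above 0.

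Rpl23, Rps3 and Rps23 were past the threshold in monocytes. Rpl23, a large-subunit protein that is known to bind the p53 regulator Mdm2 (chr11:97777527-97782437, minus strand), had 129, 127 and 209 CPM in CrePos RM, against 398, 378 and 388 CPM in CreNeg RM libraries. The control libraries were nearly alike and above all 3 deleted ones (log2 fold change -1.32 ± 0.249 SE, fold 0.400, adjusted p = 0.0377 in edgeR's quasi-likelihood test). Rps3, which lines the entry of the mRNA channel and also acts in DNA repair (chr7:99477896-99483738, minus strand), had 84.1, 129 and 139 CPM in CrePos RM, against 291, 302 and 265 CPM in CreNeg RM libraries. Again no deleted library reached a control library (log2 fold change -1.28 ± 0.245 SE, fold 0.411, adjusted p = 0.0377 in the same test). Rps23, a decoding-centre protein of the small subunit (chr13:90922958-90924950, plus strand), had 332, 221 and 298 CPM in CrePos RM, against 613, 666 and 577 CPM in CreNeg RM libraries. Its groups were also apart (log2 fold change -1.12 ± 0.227 SE, fold 0.459, adjusted p = 0.0449 in the same test).

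These 3 calls did not hold under many of the alternatives. The count of genes that passed was 0 without any one of IM649, IM650, IM648, IM659, IM660, RM648 or RM657, 1 without RM659, 2 without IM661 or RM649, 5 without RM650 and 34 without RM661, and the median stayed between -0.94 and -0.76. All genes called lower numbered 48 in the fit of all libraries and 500 without RM661. With the non-exonic share as a covariate 17 of the set passed as lower, among 271 lower calls in all, and DESeq2 called 26, among 350. The library RM661 also held the largest summed CPM of 18 endothelial markers, 10628, and the CrePos RM libraries ranged from 4163 to 10628, against 1140 to 3404 in CreNeg RM. All 18 of these markers had a log2 fold change above 0 in monocytes, and none passed the test. Above 0 were also 8 of 8 epithelial markers, with a median of 0.70, and 6 of 7 fibroblast markers, with 0.49, and 16 of 17 interstitial macrophage markers were below 0, with -1.30, none of them past the threshold. Epithelial markers summed to 1671 to 2665 CPM in CrePos RM, against 308 to 2087 CPM in CreNeg RM, and fibroblast markers to 116 to 387 CPM in CrePos RM, against 69.8 to 129 CPM in CreNeg RM. Interstitial macrophage markers summed to 1608 to 2620 CPM in CrePos RM, against 4101 to 5640 CPM in CreNeg RM libraries, with no overlap. Markers of the sorted type itself were also lower, and RM661 held 5307 CPM of them beside its 10628 CPM of endothelial markers. The 17 nonclassical monocyte markers summed to 5307 to 9932 CPM in CrePos RM, against 10968 to 17810 CPM in CreNeg RM libraries. All 17 had a log2 fold change below 0, and Cebpb, a transcription factor of myeloid cells, fell (-1.66 ± 0.306 SE, adjusted p = 0.0325 in edgeR's quasi-likelihood test). The part of these other cell types' RNA and of the sorted type's own markers in the monocyte difference was not tested. In macrophages the endothelial sums overlapped, with 1148 to 3993 CPM in CrePos IM and 1124 to 3339 CPM in CreNeg IM.

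Between the cell types, 65 of the 81 genes had no overlap in the lower direction in both, against 3.51% of all tested genes, 11 in macrophages alone (9.93% of all), 2, among them Rpsa, in monocytes alone (7.88% of all), and 3 (Rpl13a, Rpl22l1 and Rps4y2) in neither (78.7% of all). Whether the deletion effect itself differs was tested as the difference of the 2 effects, macrophages minus monocytes. No gene of the set passed, against a background of 0% in each direction, and 2 had an unadjusted p under 0.05 in the lower direction (background 2.76%) and 0 in the higher (background 6.15%). DESeq2 called 0. The median difference was -0.11, against 0.19 over all tested genes, and 53 of the 81 were below 0 (background 43.3%). With the non-exonic share as a covariate it was 0.20, against 0.47 over all tested genes, with 31 of the 81 below 0. Without IM661 it was -0.45 with 75 below 0, without IM659 it was -0.32, without RM649 -0.21 and without RM657 -0.19, and nearest to 0 it was -0.02, without IM650, so its size is not settled by these libraries. The 3 genes with the smallest p were Rps18, at -1.01 ± 0.423 (SE), Rpl37, at -0.73 ± 0.308, and Rpl26, at -0.51 ± 0.292, with adjusted p of 0.518, 0.518 and 0.638 in edgeR's quasi-likelihood test. Rps18, a protein of the head of the small subunit, had 60.7, 40.7 and 57.9 CPM in CrePos IM against 122, 114 and 124 CPM in CreNeg IM libraries, and 85.3, 84.05 and 60.9 CPM in CrePos RM against 59.02, 85.01 and 115 CPM in CreNeg RM libraries. Its groups were apart in macrophages and overlapped in monocytes.

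The lateral stalk, which recruits the elongation factors, is built on Rplp0 with copies of Rplp1 and Rplp2. Rplp0 had 235, 229.6 and 418 CPM in CrePos IM against 612, 605 and 638 CPM in CreNeg IM, and 124, 239.5 and 245 CPM in CrePos RM against 333, 588 and 508 CPM in CreNeg RM libraries (log2 fold change -1.07 and -1.23, adjusted p = 0.179 and 0.0757). Rplp1 had 125, 128 and 266 CPM in CrePos IM against 412, 417 and 465 CPM in CreNeg IM, and 43.7, 49.4 and 136 CPM in CrePos RM against 163, 211 and 142 CPM in CreNeg RM libraries (log2 fold change -1.32 and -1.17, adjusted p = 0.203 and 0.157). In these stalk genes the libraries IM661 and RM661 were high within their groups, yet below the controls. Rplp2 had 202, 189 and 429 CPM in CrePos IM against 460.1, 434 and 539.6 CPM in CreNeg IM, and 89.8, 187 and 257 CPM in CrePos RM against 372, 384 and 379.6 CPM in CreNeg RM libraries (log2 fold change -0.80 and -1.09, adjusted p = 0.46 and 0.147). None of the 3 passed edgeR's quasi-likelihood test, and the CrePos and CreNeg libraries did not overlap in either cell type.

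Rpl5 and Rpl11 carry the 5S ribosomal RNA into the large subunit and, when free, inhibit Mdm2. Rpl5 had 449.8, 491 and 563 CPM in CrePos IM against 846, 877 and 863 CPM in CreNeg IM, and 595, 531 and 395 CPM in CrePos RM against 782, 875 and 769.8 CPM in CreNeg RM libraries. Rpl11 had 113, 84.1 and 117 CPM in CrePos IM against 170.3, 180.4 and 208 CPM in CreNeg IM, and 115, 104 and 83.9 CPM in CrePos RM against 151, 175 and 178 CPM in CreNeg RM libraries. Both had no overlap between genotypes, with log2 fold changes of -0.78 and -0.67 for Rpl5 and -0.83 and -0.74 for Rpl11 in macrophages and monocytes, and adjusted p between 0.132 and 0.164.

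Rps6, the small-subunit protein that is phosphorylated downstream of mTORC1, had 278, 269 and 303 CPM in CrePos IM against 526, 516 and 559 CPM in CreNeg IM, and 198, 323 and 305 CPM in CrePos RM against 424, 589.8 and 501 CPM in CreNeg RM libraries. The genotypes did not overlap (log2 fold change -0.91 and -0.87, adjusted p = 0.118 and 0.0838). Rps27a, which is made as a fusion with ubiquitin, had 91.4, 129 and 182 CPM in CrePos IM against 268, 281 and 297 CPM in CreNeg IM, and 113, 119 and 155 CPM in CrePos RM against 215, 322 and 336 CPM in CreNeg RM libraries (log2 fold change -1.07 and -1.17, adjusted p = 0.122 and 0.0579). It too showed no overlap. Rpsa, a small-subunit protein also known as a laminin receptor, had the highest mean CPM of the set over all 12 libraries, although Rpl5 was above it in both CreNeg groups. Rpsa had 533, 522 and 907 CPM in CrePos IM against 774, 828 and 927 CPM in CreNeg IM, and 525, 542 and 559 CPM in CrePos RM against 674, 886 and 644 CPM in CreNeg RM libraries. Its differences were smaller (log2 fold change -0.37 and -0.44, adjusted p = 0.752 and 0.401), and the library IM661 reached the range of the macrophage controls. Without Rpsa, the set took 1.07% of gene counts in CrePos IM and 2.09% in CreNeg IM, and 1.04% in CrePos RM and 1.69% in CreNeg RM.

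Several ribosomal proteins have a paralog that can take their place in some tissues. Rpl22 had 131, 127 and 138 CPM in CrePos IM against 251, 259.7 and 269 CPM in CreNeg IM, and 81.01, 126 and 118 CPM in CrePos RM against 173, 176 and 166 CPM in CreNeg RM libraries, with no overlap between genotypes (log2 fold change -0.97 and -0.66, adjusted p = 0.0889 and 0.155). Rpl22l1, its paralog, had 2.43, 3.55 and 9.07 CPM in CrePos IM against 16.3, 3.91 and 13.2 CPM in CreNeg IM, and 81.8, 5.88 and 8.43 CPM in CrePos RM against 24.2, 15.7 and 5.70 CPM in CreNeg RM libraries. The genotypes overlapped in both cell types, and RM649 alone was high (log2 fold change -1.15 and 1.08, adjusted p = 0.874 and 0.632).

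Rpl3, which helps to shape the peptidyl transferase centre, had 372, 310.3 and 552 CPM in CrePos IM against 768, 799 and 848 CPM in CreNeg IM, and 232, 349.7 and 324 CPM in CrePos RM against 499, 617 and 541 CPM in CreNeg RM libraries (log2 fold change -0.97 and -0.87, adjusted p = 0.122 and 0.105). Rpl3l, a paralog known from striated muscle, had 0.122, 0.132 and 0 CPM in CrePos IM against 1.97, 0.443 and 0.240 CPM in CreNeg IM, and 0, 0 and 0.266 CPM in CrePos RM against 5.16, 9.54 and 3.27 CPM in CreNeg RM libraries. It did not pass the test (adjusted p = 0.643 and 0.155), and at so few counts its fitted fold change depends on the prior count and is not given. The floor of 3 counts lies between 0.219 and 0.495 CPM in these libraries, so the values of Rpl3l outside CreNeg RM, other than that of IM648, are near or below it.

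Rpl7, a large-subunit protein, had 325, 271 and 408 CPM in CrePos IM against 651, 649.3 and 697 CPM in CreNeg IM, and 296, 313 and 345 CPM in CrePos RM against 489, 607 and 580.0 CPM in CreNeg RM libraries (log2 fold change -0.99 and -0.81, adjusted p = 0.0664 and 0.0837). Rpl7l1, its paralog, had 48.4, 39.2 and 44.3 CPM in CrePos IM against 65.2, 60.1 and 72.9 CPM in CreNeg IM, and 52.6, 39.4 and 49.9 CPM in CrePos RM against 51.3, 56.8 and 47.2 CPM in CreNeg RM libraries (log2 fold change -0.59 and -0.13, adjusted p = 0.565 and 0.874). The genotypes of Rpl7 were apart in both cell types, while those of Rpl7l1 were apart in macrophages and overlapped in monocytes. Rps27l, the paralog of Rps27 and a p53 target, had 8.64, 10.1 and 5.14 CPM in CrePos IM against 14.4, 23.7 and 12.2 CPM in CreNeg IM, and 13.2, 0 and 12.6 CPM in CrePos RM against 12.7, 8.07 and 11.5 CPM in CreNeg RM libraries. Its monocyte libraries overlapped and RM650 held no count (adjusted p = 0.927 and 0.923).

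Rpl10, which is added last to the large subunit in the cytoplasm, had 259.9, 267 and 344 CPM in CrePos IM against 573, 598 and 674 CPM in CreNeg IM, and 197, 214 and 217 CPM in CrePos RM against 328, 495 and 379 CPM in CreNeg RM libraries, with no overlap (log2 fold change -1.08 and -0.94, adjusted p = 0.0559 and 0.0583). Its testis paralog Rpl10l had 0 counts in all 12 libraries, which allows at most the 3-count floor in each. Rpl39 had 3 counts, all in RM661, and its paralog Rpl39l had 2, both in IM648, so these 3 genes were not tested. Of the exon sequence of Rpl39, 16.5% of the 50-base stretches also occur in another gene. Reads that fit several places took 4.44 to 9.02% of the reads of a library, and whether the reads of Rpl39 were among them was not tested.

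The cell types were then compared within each genotype. Macrophage libraries lay in lanes 5 and 7 and monocyte libraries in lanes 6 and 8, so cell type and lane cannot be told apart here. The CrePos groups took nearly equal shares of gene counts, 1.13% in CrePos IM and 1.10% in CrePos RM (ratio 1.03), while the CreNeg share was 1.24 times as high in CreNeg IM, with 2.17%, as in CreNeg RM, with 1.76%. Between CrePos IM and CrePos RM, 0 of the 81 genes passed in either direction (background 3.22% higher and 1.35% lower), and an unadjusted p under 0.05 was reached by 8 in the higher direction (background 9.6%) and 1 in the lower (background 5.84%). DESeq2 called 0 higher and 1 lower, among 782 higher and 446 lower calls in all. The median log2 fold change was 0.14, the same as over all tested genes, and 26 of the 81 genes were below 0 (background 44.5%). The sign of this median turned without IM661, to -0.12 with 48 of the 81 below 0, and with total count scaling, to -0.01. Without overlap were 7 genes in the higher direction (background 16%) and 1 in the lower (background 6.25%). The 3 smallest p-values belonged to Rpl10a, a large-subunit protein of the L1 stalk, with a log2 fold change of 1.08 ± 0.324 (SE), Rplp1, with 1.18 ± 0.400, and Rpl12, at the base of the lateral stalk, with 0.91 ± 0.330. Their adjusted p of 0.0752, 0.128 and 0.159 in edgeR's quasi-likelihood test did not pass. Rpl10a had 76.1, 63.7 and 120.4 CPM in CrePos IM against 31.3, 32.03 and 59.6 CPM in CrePos RM, and Rpl12 had 81.2, 85.4 and 128 CPM in CrePos IM against 31.02, 42.2 and 82.7 CPM in CrePos RM libraries. RM661 was the highest monocyte library in both genes, and for Rpl12 it overlapped the macrophages.

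Between CreNeg IM and CreNeg RM, 0 of the 81 genes passed in either direction (background 2.81% higher and 4.67% lower). An unadjusted p under 0.05 was reached by 15 in the higher direction (background 9.02%) and 0 in the lower (background 11.1%). DESeq2 called 7 higher, among 851 higher calls in all. The median log2 fold change was 0.32, against 0.06 over all tested genes, and 37 of the 81 had no overlap with CreNeg IM higher (background 18.6%) and 2 with CreNeg IM lower (background 17.2%). Below 0 were 8 of the 81 (background 47.5%). Rplp1 had 412, 417 and 465 CPM in CreNeg IM against 163, 211 and 142 CPM in CreNeg RM libraries (log2 fold change 1.32 ± 0.400 SE). Rpl37 had 307, 310.1 and 282 CPM in CreNeg IM against 167, 207 and 172 CPM in CreNeg RM libraries (0.72 ± 0.218 SE). Both were apart between the cell types, with an adjusted p of 0.0575 each in edgeR's quasi-likelihood test. Rpl41, the smallest protein of the large subunit, had 158, 201 and 184 CPM in CreNeg IM against 86.9, 105 and 125 CPM in CreNeg RM libraries (0.78 ± 0.254 SE, adjusted p = 0.0787 in the same test). The non-exonic share differed between these groups too, 42.0 ± 3.06% in CreNeg IM and 61.7 ± 4.54% in CreNeg RM. With it as a covariate the median log2 fold change of the set was -0.03, against -0.34 over all tested genes, 43 of the 81 were below 0 and 1 had an unadjusted p under 0.05. The log2 fold change of Rplp1 was -0.19 in that fit.

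Set side by side, macrophages without Cre had the highest level of most of the genes. The mean CPM was highest in CreNeg IM for 72 of the 81 genes, in CreNeg RM for 7, in CrePos RM for 2 and in CrePos IM for 0. It was lowest in CrePos RM for 55, in CrePos IM for 25 and in CreNeg RM for 1. The median level was 103 CPM in CrePos IM and 231 CPM in CreNeg IM, and 90.8 CPM in CrePos RM and 172 CPM in CreNeg RM. The libraries of the CrePos groups were more spread, with a median coefficient of variation over the genes of 19.5% in CrePos IM and 9.27% in CreNeg IM, and 24.99% in CrePos RM and 15.3% in CreNeg RM (3 libraries each). Neither this order of the groups nor this spread was computed over all tested genes. They are therefore not shown to be particular to the set.

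**Figure D4:**
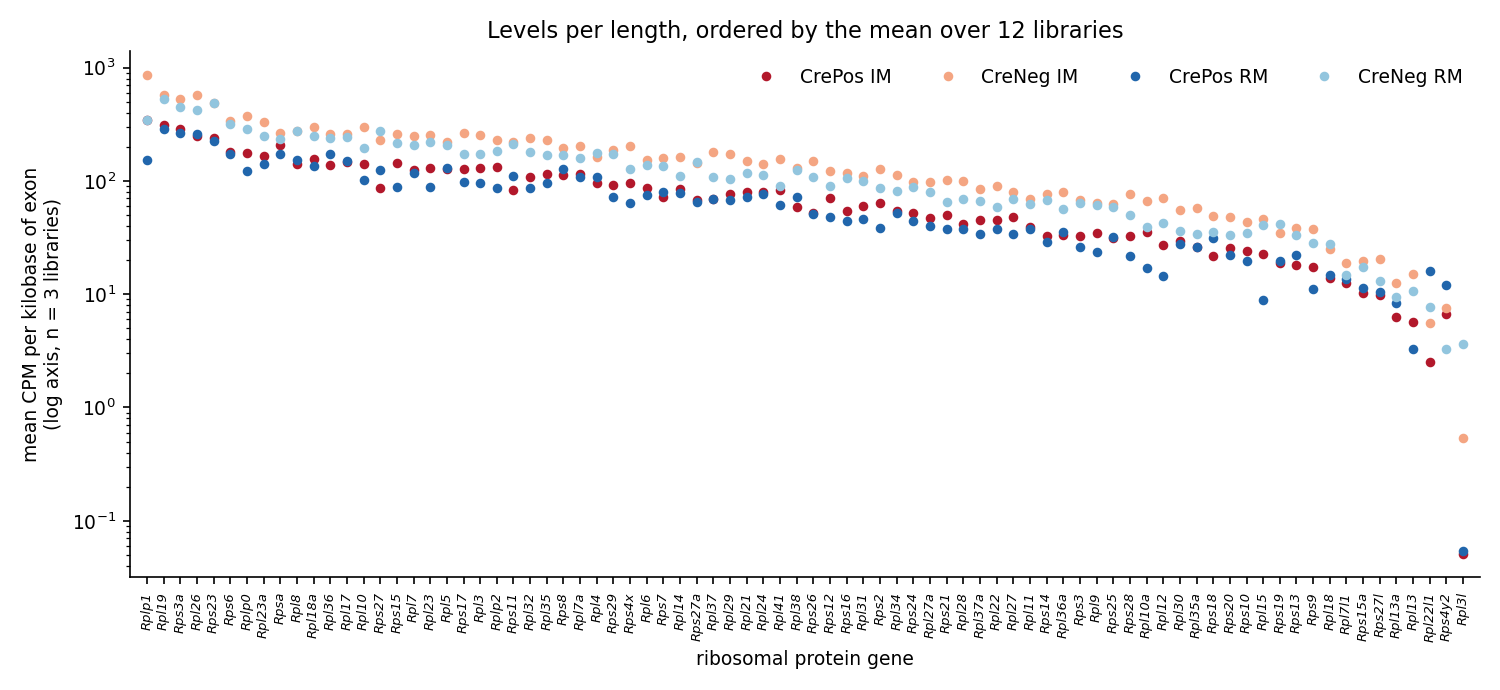
Mean level of the tested ribosomal protein genes, other than 1 that is not drawn, in CPM per kilobase of exon on a log axis, with genes in order of their level over all 12 libraries and the groups in 4 colours (means of 3 libraries). Over all 81 genes, the CreNeg IM mean lies highest for 72 and the CrePos RM mean lowest for 55. The same order was not counted over all tested genes.

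Levels between genes can be compared per kilobase of exon. Rplp1 ranked first over the 12 libraries with 427 CPM per kilobase, followed by Rpl19 with 425 and Rps3a with 383. This order over all libraries is not that of each group. Rplp1 averaged 347 ± 161 CPM per kilobase in CrePos IM and 864 ± 57.9 in CreNeg IM, and 153 ± 104 in CrePos RM and 345 ± 71.1 in CreNeg RM. It led in both macrophage groups, while Rpl19 led in both monocyte groups, with 286 ± 34.7 CPM per kilobase in CrePos RM and 529 ± 77.3 in CreNeg RM. Rpl19, a large-subunit protein that forms a bridge to the small subunit, had 262, 262 and 425 CPM in CrePos IM against 571, 569.7 and 618 CPM in CreNeg IM, and 253, 323 and 300.4 CPM in CrePos RM against 573, 599 and 451 CPM in CreNeg RM libraries. Rps3a, a small-subunit protein, had 275, 258 and 313 CPM in CrePos IM against 494, 523 and 531 CPM in CreNeg IM, and 223, 305 and 240.0 CPM in CrePos RM against 342, 556 and 426 CPM in CreNeg RM libraries. For both genes the genotypes did not overlap in either cell type. The order at the top depends on the length used, since with the longest transcript Rpl26 ranked first and Rplp1 ranked 6.

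Among the lowest tested genes were Rps4y2 and Rpl3l, with 7.36 and 1.07 CPM per kilobase. Rps4y2, which GENCODE lists under the symbol Rps4l as a transcribed processed pseudogene, had 4.99, 9.9997 and 3.79 CPM in CrePos IM against 7.95, 5.31 and 8.08 CPM in CreNeg IM, and 19.8, 4.11 and 9.94 CPM in CrePos RM against 2.36, 6.73 and 0.243 CPM in CreNeg RM libraries. The genotypes of Rps4y2 overlapped in both cell types.

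The log2 share of each gene within the set had a Pearson correlation over the 81 genes of 0.986 between CrePos IM and CreNeg IM and of 0.890 between CrePos RM and CreNeg RM, and of 0.961 between CrePos IM and CrePos RM and 0.962 between CreNeg IM and CreNeg RM, as a description over genes that share libraries, lengths and sequence with each other. The Spearman correlations were 0.984, 0.956, 0.942 and 0.963 in the same order. By rank, the monocyte genotypes were thus not the least alike of these pairs. The log2 fold changes in macrophages and monocytes come from different libraries, but some of these carry the same number. The labels do not say whether a shared number marks the same animal. The fold changes had a Pearson correlation of 0.739 and a Spearman correlation of 0.292 over the genes. Low-count genes with large fitted values, such as Rpl3l, weigh heavily in the Pearson value.

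The members share features that affect how reads are counted. Processed copies of ribosomal protein genes are common in the mouse genome, and 81 of the 84 genes, counted whether tested or not, share a stretch of exon sequence with an annotated pseudogene. A median of 46.0% of the 50-base stretches of a gene's exons also occur elsewhere among annotated exons, and 37 genes share at least 50% of theirs. Among the genes that passed a test of the deletion, the share was 31.3% in Rpl37, 47.4% in Rpl26 and 63.1% in Rps27. It was 34.8% in Rpl23, 2.96% in Rps3 and 51.7% in Rps23. Levels of genes with many shared stretches are uncertain because of the sharing. Reads that fit several places took 4.44 to 7.51% of reads in CrePos IM and 7.98 to 9.02% in CreNeg IM libraries, without overlap. In monocytes they took 4.46 to 6.25% in CrePos RM and 5.44 to 6.20% in CreNeg RM libraries. The part of these reads in the differences between genotypes was not tested. Adding the pseudogene rows Rpl34-ps1, Rplp2-ps1 and Rps19-ps3 left the summed share at 1.13% in CrePos IM and 2.18% in CreNeg IM, and at 1.10% in CrePos RM and 1.76% in CreNeg RM. These rows cover few of the copies, since Rpl7a alone shares stretches with 120 annotated pseudogenes. The sum therefore does not test how reads at pseudogenes were counted. In addition, 30 of the 84 genes hold 58 snoRNA genes inside them. The genes lie on 19 chromosomes, with 4 of the genes on X.

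The tables also hold genes of ribosomal proteins whose names the pattern leaves out. Gnb2l1, the older symbol of Rack1, a scaffold on the small subunit, had 80.8, 63.4 and 103 CPM in CrePos IM against 227, 211 and 199 CPM in CreNeg IM, and 48.8, 58.3 and 77.5 CPM in CrePos RM against 196, 196 and 158 CPM in CreNeg RM libraries. The genotypes were apart, and it fell in macrophages (log2 fold change -1.36 ± 0.264 SE, adjusted p = 0.0447 in edgeR's quasi-likelihood test) and in monocytes (-1.57 ± 0.266 SE, adjusted p = 0.026). Fau, which encodes the small-subunit protein eS30 as a fusion, had 126, 124 and 267 CPM in CrePos IM against 252, 258 and 352 CPM in CreNeg IM, and 118, 112 and 147 CPM in CrePos RM against 389, 389 and 379 CPM in CreNeg RM libraries. It fell in monocytes (-1.62 ± 0.297 SE, adjusted p = 0.0325 in the same test), where its groups were apart, and did not pass in macrophages (-0.74 ± 0.291 SE, adjusted p = 0.371), where IM661 reached the controls. Rpl36al, a near copy of the large-subunit gene Rpl36a, had log2 fold changes of -0.94 in macrophages and -1.37 in monocytes and did not pass (adjusted p = 0.362 and 0.0858 in the same test).

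Other parts of the translation machinery were read from gene lists. Of 12 elongation factor genes, 11 were below 0 in macrophages with a median log2 fold change of -0.68, and 9 in monocytes with -0.49. Eef1a1, which brings aminoacyl-tRNA to the ribosome and whose mRNA is a TOP mRNA, had 1114, 1011 and 1392 CPM in CrePos IM against 2588, 2585 and 2662 CPM in CreNeg IM libraries and fell (log2 fold change -1.16 ± 0.222 SE, adjusted p = 0.0447 in edgeR's quasi-likelihood test). It was the elongation factor gene that passed, and in monocytes it did not (-0.97 ± 0.221 SE, adjusted p = 0.057). Of 17 TOP mRNAs that encode no ribosomal protein, 16 were below 0 in macrophages, with a median of -0.84, and 17 in monocytes, with -0.67, but 11 of the 17 also belong to the lists of elongation, initiation, ribosome biogenesis or snoRNA host genes. Tpt1, a TOP mRNA for a translationally controlled protein, had 588, 759 and 805 CPM in CrePos RM against 1347, 1697 and 1524 CPM in CreNeg RM libraries and fell (-1.09 ± 0.210 SE, adjusted p = 0.0395 in the same test).

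The lists that follow, other than the nuclear RNAs, had medians closer than that of the TOP mRNAs to the median of all genes, which was 0.07 in macrophages and -0.10 in monocytes. Of 75 tested mitochondrial ribosomal protein genes, whose mRNAs are not counted among the TOP mRNAs, 65 were below 0 in macrophages, with a median of -0.69, and 55 in monocytes, with -0.51, and 0 passed in either. The 35 initiation factor genes had medians of -0.48 in macrophages and -0.39 in monocytes, and the 48 genes of ribosome biogenesis had -0.16 and -0.54, with 0 past the threshold. The 21 genes of mTORC1 and its control of TOP mRNAs, among them Mtor, Larp1 and Ddit4, had medians of -0.02 and -0.32, with 0 past the threshold. The 6 tested host genes of snoRNAs had medians of 0.39 and -0.59. Nuclear RNAs went the other way in macrophages, where Neat1, Kcnq1ot1 and Malat1 rose (log2 fold change 2.83, 2.43 and 1.68, adjusted p = 0.0444 each in edgeR's quasi-likelihood test), 3 of 6 genes, with a median of 2.63, and in monocytes the median was 0.65 with 0 past the threshold. No test between lists was run, and the lists, that of the nuclear RNAs included, were chosen with earlier results of these data known.

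**Figure D5:**
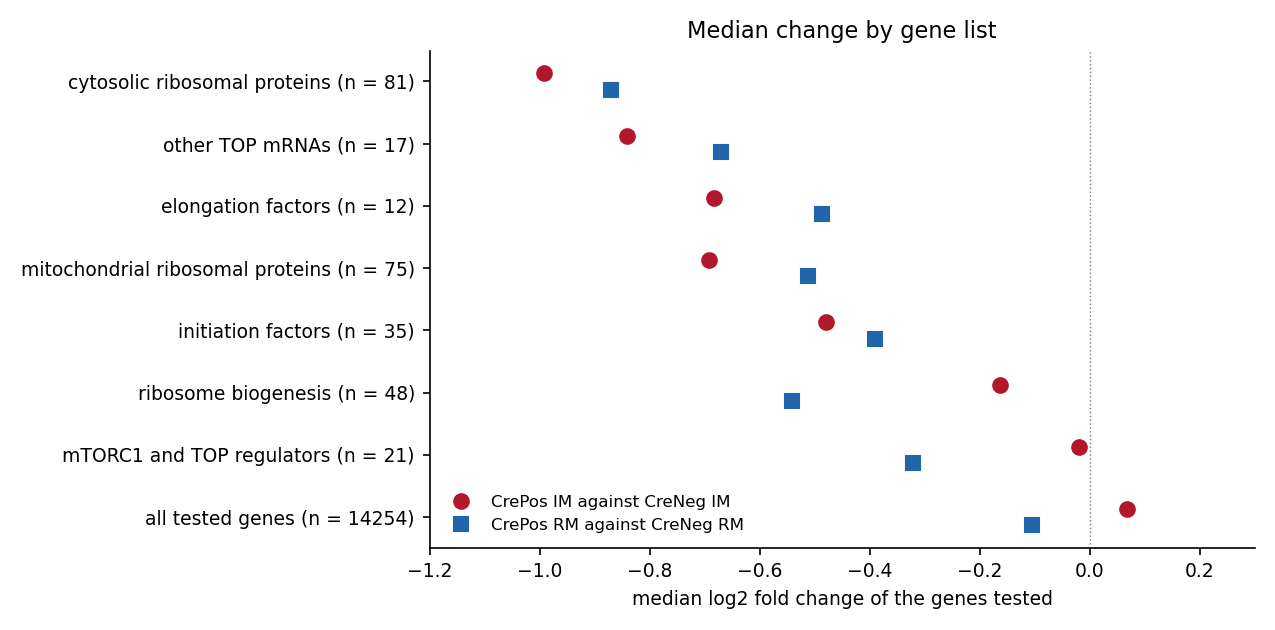
Median log2 fold change, CrePos over CreNeg, of the ribosomal protein genes and of each list of the translation machinery, beside all tested genes, in interstitial macrophages and nonclassical monocytes. Circles stand for macrophages and squares for monocytes, and the number of tested genes is beside each list. The ribosomal protein genes have medians of -0.99 and -0.87, and the other TOP mRNAs of -0.84 and -0.67.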

How the data were processed

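RNA-seq libraries of sorted lung macrophages and monocytes were analysed from the counts that the authors deposited, whole-number counts of reads per gene, 1 table per library, neither normalized nor filtered. The submitters' processing notes name HTSeq 0.6.0, TopHat2 2.1.1, cutadapt 1.12 and the build GRCm38 (mm10). Per the labels, the kit was stranded and for total RNA, which keeps unspliced RNA. The annotation, the strand setting and the rule for multiply aligned reads were not given in the sources used here. Entries of each table that name no gene (44.97 to 74.1% of its reads) were left out of library sizes and tests.

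Genes passing edgeR's filterByExpr (minimum count 10) entered 1 robust quasi-likelihood fit of 12 libraries with 4 group means and TMM scaling (R 4.3.3, edgeR 4.0.16). P-values were adjusted by Benjamini-Hochberg over 14254 genes, with a threshold of 0.05, and 5 contrasts were tested. CPM use TMM-scaled library sizes, while fold changes come from the fit. Depth was 5332600 to 14099509 gene counts per library. Intervals cover counting error only, since the reads carry no molecular identifiers that the files report. The scripts were tested on simulated counts. Alternatives used DESeq2 1.42.0, other scalings, covariates and left-out libraries. Coordinates and exon lengths come from GENCODE M21, start windows from RefSeq, and figures were drawn with matplotlib 3.10.9 under Python 3.11.15. A 50-base stretch counts as shared when the same letters lie in a transcript of another GENCODE gene.

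The genes and gene lists were chosen with earlier results of these data known. Named with values in every library are, per comparison, the genes past the threshold (at most 6 per direction, smallest p first, or, where under 3 passed, the 3 smallest p), the 3 highest and 3 lowest genes per length, the paralog pairs, the stalk proteins, Rpl5, Rpl11, Rps6, Rpsa and Rps27a, and up to 3 genes of each other list. Some genes that meet this rule are not reported here.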

Additional observations from a re-analysis of the deposited data

How the results depend on the processing

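The median log2 fold change of the ribosomal protein genes stayed below 0 for the deletion in both cell types under the alternatives run, while the number of genes past the threshold did not hold. In the other 3 comparisons the median turned: between CreNeg IM and CreNeg RM to -0.03 with the non-exonic share as a covariate, between CrePos IM and CrePos RM to -0.12 without IM661 and -0.01 with total count scaling, and for the difference of the deletion effects to 0.20 with the non-exonic share. For the deletion in macrophages, 3 genes passed as lower, and the count was 7 with upper quartile scaling, 0 with total count scaling, 12 without the low-count filter, 51 with DESeq2, 65 with the 6 macrophage libraries alone, 0 with the lane and 0 with the non-exonic share as a covariate, and 0 to 33 when single libraries were left out. For the deletion in monocytes, 3 passed as lower, and the count was 0 with RLE, upper quartile or total count scaling, 5 without the filter, 26 with DESeq2, 0 with the 6 monocyte libraries alone, 0 with the lane and 17 with the non-exonic share as a covariate, and 0 to 34 when single libraries were left out. Between CrePos IM and CrePos RM no gene passed. The count was 1 lower with DESeq2, among 446 lower calls in all, and 4 higher with the non-exonic share, among 684 higher calls. It was 0 to 5 higher when single libraries were left out, with 5 without RM661, among 1217 higher calls. Between CreNeg IM and CreNeg RM no gene passed. The count of higher genes was 2 with RLE, 1 with upper quartile, 1 with total count scaling and 1 without the filter. All genes called higher numbered 446, 414, 355 and 406 in the same order. The count was 7 with DESeq2, among 851 higher calls in all, and 12 with the 6 libraries alone, among 839. It was 0 to 4 when single libraries were left out, with 4 without RM649, among 684. For the difference of the deletion effects, the count was 0 to 1 higher when single libraries were left out. The 1 was without RM661, among 34 higher calls in all. For the deletion in macrophages, all genes called lower numbered 15 with upper quartile scaling and 25 without the filter. For the deletion in monocytes they numbered 90 without the filter. The causes of these shifts were not tested.

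The log2 fold change of Rplp1 between CreNeg IM and CreNeg RM turned to -0.19 (adjusted p = 0.946) with the non-exonic share as a covariate. The summed share without Rpsa was 1.07% in CrePos IM and 2.09% in CreNeg IM, and 1.04% in CrePos RM, and without Malat1 in the total it was 1.15% in CrePos RM. With the longest transcript as length, the median level was 176 CPM per kilobase. Against the TMM value of -0.10, the median over all tested genes in the monocyte comparison was 0.04 with RLE and 0.05 with total count scaling. For single named genes, 216 of the recomputed values kept their side of the threshold, 77 no longer passed and 27 newly passed. All 77 belong to the 6 genes that passed a test of the deletion. Each of these 6 passed in only 6 to 10 of its 21 alternatives.

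Labels of both cell types share 5 numbers, such as that of IM648 and RM648, and no label says what a number marks. Over all tested genes, deviations of libraries with the same number had correlations of 0.022 for IM648 and RM648, 0.017 for IM649 and RM649, -0.062 for IM650 and RM650, 0.118 for IM659 and RM659 and -0.071 for IM661 and RM661. Over the 81 ribosomal protein genes they were 0.138, 0.133, -0.236, 0.362 and 0.226 in the same order. Libraries of IM648, IM649 and IM659 correlated best with their own number, those of IM650 and IM661 did not, and since not every pair was above 0.1 the numbers were not taken as pairs. With the number as a replicate block, 1 gene of the set passed as higher between CrePos IM and CrePos RM, among 303 higher calls in all. Between CreNeg IM and CreNeg RM it was 0, among 110. With 3 libraries per group of about 250 cells each, differences in the number of genes past the threshold are not differences in size.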
